A study of Homo sapiens with 6 samples.

Results

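The 10 genes described here encode the oxygen-regulated subunits of the hypoxia-inducible factors (HIF1A and EPAS1), the prolyl hydroxylases EGLN1 and EGLN3 that mark those subunits for destruction, and 6 widely used target genes of the factors (CA9, CA12, BNIP3, NDRG1, ANKRD37 and KDM3A). They were chosen by symbol, 10 of 62700 gene IDs in the files, and 9 of the 10 passed the filter on low counts that 15685 genes passed. RNA was sequenced from OVCAR8, an established human ovarian carcinoma line labelled wild type, kept without serum overnight. Cells of the 3 control libraries were given PBS. Those of the 3 leptin libraries were given 100 ng/ml of leptin, a hormone of fat cells, and were exposed to it for 24 h. All 6 libraries come from this 1 line, and the labels used here name no oxygen tension. By the series' design text, the comparison was meant to find markers through which leptin maintains stem-like properties of ovarian cancer cells.

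In oxygenated cells the EGLN enzymes hydroxylate prolines of the HIF alpha subunits, the VHL ubiquitin ligase complex then binds them, and the proteasome destroys them. When oxygen is short the alpha subunits persist, pair with ARNT and bind short DNA elements with an RCGTG core near their target genes. HIF1A is therefore known to be controlled largely at the protein level, which RNA counts do not measure. EGLN3, CA9, BNIP3, NDRG1, ANKRD37 and KDM3A are among the transcripts known to rise in hypoxia. In ovarian and other carcinomas CA9 is used as a tissue marker of hypoxia.

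Total counts lay between 15609425 and 18577775 per library. Nothing in the labels tells if each library had a culture of its own, and the tests therefore rest on a spread among libraries that may be technical. Leptin replicate 1 stood apart: its score was -2.15 on principal component 1 (49.6% of the variance), against -31.0 to -23.6 for the controls and 39.6 to 46.3 for leptin replicates 2 and 3. On principal component 2 (18.6%) its score was -40.0, against 5.95 to 12.9 for the controls and 19.6 and -6.13 for leptin replicates 2 and 3. It thus differed from both of these sets of libraries and did not merely lie between them. Of 15685 tested genes, 9.81% passed edgeR's quasi-likelihood test at an adjusted p under 0.05, 5.71% higher and 4.09% lower with leptin. The 3 leptin libraries lay wholly to one side of the controls for 32.2% of tested genes. The ovarian lineage factor PAX8 stood at 354 to 370.3 CPM (read-pair counts scaled to a common library size) in controls and 358 to 369 CPM with leptin, and the leukocyte marker PTPRC had no count in any library. MUC16, MSLN and CDH1, other markers of ovarian or epithelial cells, were below 1 CPM in all 6 libraries.

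EPAS1 rose with leptin and HIF1A did not pass the test. EPAS1, which encodes the HIF2 alpha subunit, stood at 138, 151 and 141 CPM in control replicates 1 to 3 and at 174, 454 and 340.3 CPM in leptin replicates 1 to 3. All 3 leptin libraries lay above all controls, and leptin replicate 1 lay far closer to the controls than to leptin replicates 2 and 3. The mean went from 143 ± 6.90 to 323 ± 141 CPM (SD, n = 3 each), which is 1.17 ± 0.29 (SE) on the log2 scale (edgeR adjusted p = 0.0403). HIF1A stood at 504, 500.2 and 488 CPM in controls and at 461, 509 and 465 CPM with leptin. The groups overlapped, and leptin minus control was -0.06 ± 0.11 on the log2 scale (edgeR adjusted p = 0.774). Its direction turned, to 0.09, with each library's trend over GC content removed. In bulk RNA a change in the number of cells of one kind and a change in RNA per cell cannot be told apart.

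The ratio of the 2 subunit transcripts was computed within each library. Per kilobase of exon that no other gene shares, EPAS1 equalled 0.171, 0.189 and 0.181 of HIF1A in control replicates 1 to 3 and 0.237, 0.559 and 0.459 of it in leptin replicates 1 to 3. The ratio was higher in all 3 leptin libraries than in any control, with a mean log2 difference of 1.12. An exact two-sided permutation test gave p = 0.1 (adjusted p = 0.2 over 2 ratios), and 0.1 is the smallest p that 3 libraries against 3 allow. HIF1A remained the more abundant of the pair per length in every library.

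**Figure D1:**
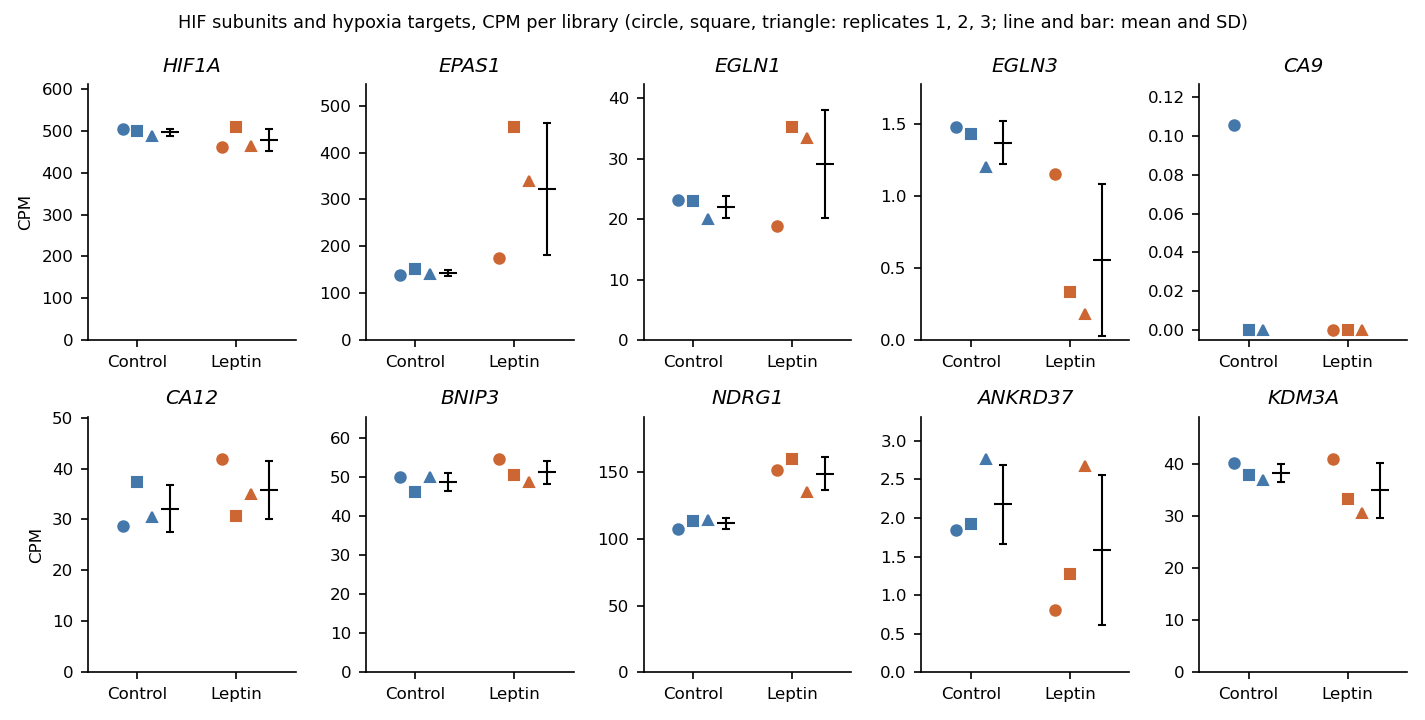
Scaled counts (CPM, y axis, a separate linear scale for each gene) of the 10 genes in the 3 control libraries (blue) and the 3 leptin libraries (orange), with circles, squares and triangles for replicates 1, 2 and 3, and black lines and bars for mean and SD, left out for CA9. EPAS1 and NDRG1 lie above the controls in all 3 leptin libraries, EGLN3 lies below them, and leptin replicate 1 is near the controls for EPAS1, EGLN1 and EGLN3.

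The EPAS1 call was lost in 5 of the 6 fits that each left out 1 library. In those 5 fits 0.711% to 4.84% of all tested genes passed, beside 9.81% with all 6 libraries. The unadjusted edgeR p of EPAS1 was 0.00561 to 0.00986 in them, beside 0.00310 with all 6 libraries. Without leptin replicate 1 the difference was 1.46 on the log2 scale (edgeR adjusted p = 2.71e-07). It did not pass without control replicates 1, 2 or 3 (edgeR adjusted p = 0.135, 0.0942 and 0.128) or without leptin replicates 2 or 3 (0.0936 and 0.113), while its fold change stayed between 0.84 and 1.46 over the 6 leave-outs. With each library's trend over GC content removed it was 1.15 (edgeR adjusted p = 0.0705), and without the low-count filter 1.17 (edgeR adjusted p = 0.0617). Over all 14 alternatives the adjusted p of EPAS1 ranged from 2.71e-07 to 0.135, and 7 of them kept it under 0.05. The SD of its log2 CPM was 0.0688 among controls and 0.709 among leptin libraries, where the medians over all tested genes were 0.122 and 0.238. EPAS1 is known for high expression in endothelium. Of 10 endothelial markers 3 passed the low-count filter (KDR, ROBO4 and ERG). By edgeR 0 of these changed, beside 9.81% of all tested genes, and 0 by DESeq2. The unadjusted edgeR p was under 0.05 in 1 of them, beside 27.6% of all tested genes. The log2 fold change was negative in 2 of the 3, with a median of -0.56. The markers PECAM1, CDH5 and VWF, which did not pass the filter, lay between 0 and 0.360 CPM. The summed level of the list was 15.2 to 17.5 CPM in controls and 14.6 to 16.0 CPM with leptin.

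EPAS1 lies on chromosome 2 at 46293667 to 46386697 (hg38, plus strand) and HIF1A on chromosome 14 at 61695513 to 61748259 (plus strand). Over the 6 libraries, the tested genes whose log2 CPM, centred on the control mean, lay nearest to that of EPAS1 were SLFN5 and RAB3IL1, at root mean square distances of 0.129 and 0.131. EGLN1 was the nearest of the other 8 tested genes described here, at 0.531, but held only rank 1312 among all tested genes. For HIF1A the nearest were SPTLC1, SMAD2 and CCAR1, at 0.0164, 0.0222 and 0.0229. The nearest to HIF1A of the other 8 tested genes described here was BNIP3, at 0.127 and rank 1837.

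EGLN1 lay above and EGLN3 below the controls in leptin replicates 2 and 3, and neither of these oxygen sensors passed the test over all 6 libraries. EGLN1, the main HIF prolyl hydroxylase in most cells, stood at 23.2, 23.0 and 20.0 CPM in controls and at 18.9, 35.2 and 33.4 CPM with leptin. Leptin replicate 1 lay below every control and the other 2 leptin libraries above them, so the groups overlapped (log2 fold change 0.40 ± 0.20, edgeR adjusted p = 0.231). EGLN3, a hydroxylase whose own transcript is induced by HIF, had 28, 23 and 20 counts in controls (1.48, 1.43 and 1.20 CPM) and 20, 5 and 3 counts with leptin (1.15, 0.334 and 0.178 CPM). All 3 leptin libraries lay below all controls, leptin replicate 1 only just. On the log2 scale leptin minus control was -1.27 ± 0.57 (edgeR adjusted p = 0.175). In leptin replicate 3 the count of EGLN3 was at the limit of 3 counts used here for a count of 0.

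Without leptin replicate 1 both genes passed, EGLN1 at 0.63 (edgeR adjusted p = 0.000923) and EGLN3 at -2.41 (edgeR adjusted p = 0.00527) on the log2 scale. In that comparison 29.6% of 16101 tested genes passed. Over all 14 alternatives the adjusted p ranged from 0.000923 to 0.531 for EGLN1 and from 0.00527 to 0.416 for EGLN3, and for each gene leaving out leptin replicate 1 was the 1 alternative that passed. Per kilobase of unshared exon, EGLN1 stood above EGLN3 by 48.8 to 51.6 times in controls, by 50.8 times in leptin replicate 1 and by 326 and 580.3 times in leptin replicates 2 and 3. The ratio of leptin replicate 1 lay inside the control range, and the exact two-sided permutation test gave p = 0.2 (adjusted p = 0.2 over 2 ratios). EGLN1 (chromosome 1, 231363751 to 231422287, minus strand) shares 55.8% of its exon bases with another annotated gene on the same strand, and read pairs there were not counted. EGLN3 lies on chromosome 14 at 33924227 to 34462774, on the minus strand.

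**Figure D2:**
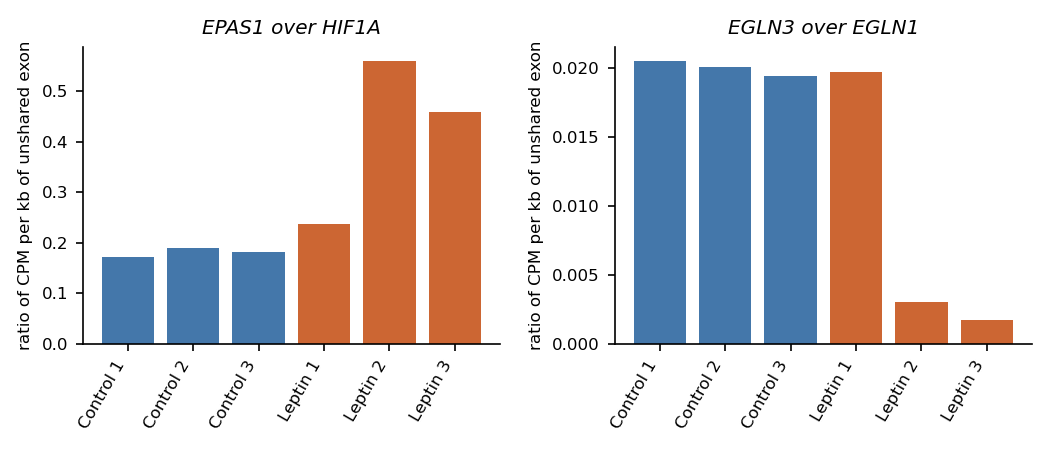
Ratios within each library of CPM per kilobase of unshared exon (y axes, linear from 0), EPAS1 over HIF1A at the left and EGLN3 over EGLN1 at the right, with control libraries in blue and leptin libraries in orange. The EPAS1 ratio is 0.171 to 0.189 in controls and up to 0.559 with leptin, and the EGLN3 ratio lies below the control range in leptin replicates 2 and 3 and inside it in leptin replicate 1.

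Among the target genes NDRG1 alone passed. NDRG1 encodes a cytoplasmic stress-response protein induced by hypoxia and by iron depletion. It stood at 107, 113 and 115 CPM in controls and at 152, 159.8 and 136 CPM in leptin replicates 1 to 3, so all leptin libraries lay above all controls, leptin replicate 1 included. The mean went from 112 ± 3.93 to 149 ± 12.3 CPM (n = 3 each), or 0.42 ± 0.11 on the log2 scale (edgeR adjusted p = 0.0344). It did not pass without control replicates 1, 2 or 3 (edgeR adjusted p = 0.191, 0.127 and 0.150) or without leptin replicates 2 or 3 (0.0678 and 0.0559), with fold changes between 0.36 and 0.47 over the 6 leave-outs. In the fits where it did not pass, 0.711% to 4.84% of all tested genes passed. The unadjusted edgeR p of NDRG1 in those fits was 0.00124 to 0.0188. Without leptin replicate 1 it passed (edgeR adjusted p = 0.00584), as it did with the GC trend removed (0.0434). Over all 14 alternatives its adjusted p ranged from 0.00584 to 0.191. NDRG1 lies on chromosome 8 at 133237175 to 133302022, on the minus strand.

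The carbonic anhydrases, which hydrate carbon dioxide and help tumour cells to regulate pH at the outer membrane, were unequal in level. CA9 had 2 counts in control replicate 1 and 0 in the other 5 libraries. The limit that a count of 0 allows, set at 3 counts and covering counting error only, equals 0.158 to 0.200 CPM, so no fold change is given. CA9 (chromosome 9, 35673928 to 35681159, plus strand) shares 35.7% of its exon bases with ARHGEF39 on the opposite strand, where read pairs were not counted. CA12, the related membrane enzyme, stood at 28.6, 37.3 and 30.4 CPM in controls and at 41.8, 30.6 and 34.9 CPM with leptin. Its groups overlapped, and leptin replicate 1 was the highest of the 6 libraries (log2 fold change 0.16 ± 0.15, edgeR adjusted p = 0.533). CA12 lies on chromosome 15 at 63321378 to 63381846, on the minus strand. Among 13 other carbonic anhydrase genes, 5 were tested and 1 rose, CA11, beside 5.71% of all tested genes. CA11, which encodes a related protein without catalytic activity, rose from 1.92 ± 0.335 to 4.77 ± 0.434 CPM (log2 fold change 1.31 ± 0.25, edgeR adjusted p = 0.0128).

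BNIP3, KDM3A and ANKRD37 did not pass. BNIP3, a mitochondrial protein gene of mitophagy and cell death, stood at 49.8, 46.0 and 49.9 CPM in controls and at 54.4, 50.4 and 48.6 CPM with leptin (log2 fold change 0.07 ± 0.10, edgeR adjusted p = 0.693). The files list 44 BNIP3 pseudogenes, whose summed counts equalled 5.57% to 10.9% of the BNIP3 count in a library, and read pairs that fit several places equally were not counted. KDM3A, a demethylase of histone H3 lysine 9, stood at 40.2, 37.8 and 36.8 CPM in controls and at 40.8, 33.3 and 30.5 CPM with leptin, so that leptin replicate 1 was the highest library and leptin replicates 2 and 3 the lowest (log2 fold change -0.13 ± 0.13, edgeR adjusted p = 0.544). ANKRD37, an ankyrin repeat protein gene, had 35, 31 and 46 counts in controls (1.85, 1.93 and 2.76 CPM) and 14, 19 and 45 with leptin (0.807, 1.27 and 2.67 CPM). Its groups overlapped because leptin replicate 3 lay among the controls (log2 fold change -0.45 ± 0.43, edgeR adjusted p = 0.538). ANKRD37 shares 40.3% of its exon bases with UFSP2 on the opposite strand. BNIP3 lies on chromosome 10 at 131967684 to 131981967 (minus strand), KDM3A on chromosome 2 at 86440647 to 86492716 (plus strand) and ANKRD37 on chromosome 4 at 185396021 to 185400628 (plus strand).

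**Figure D3:**
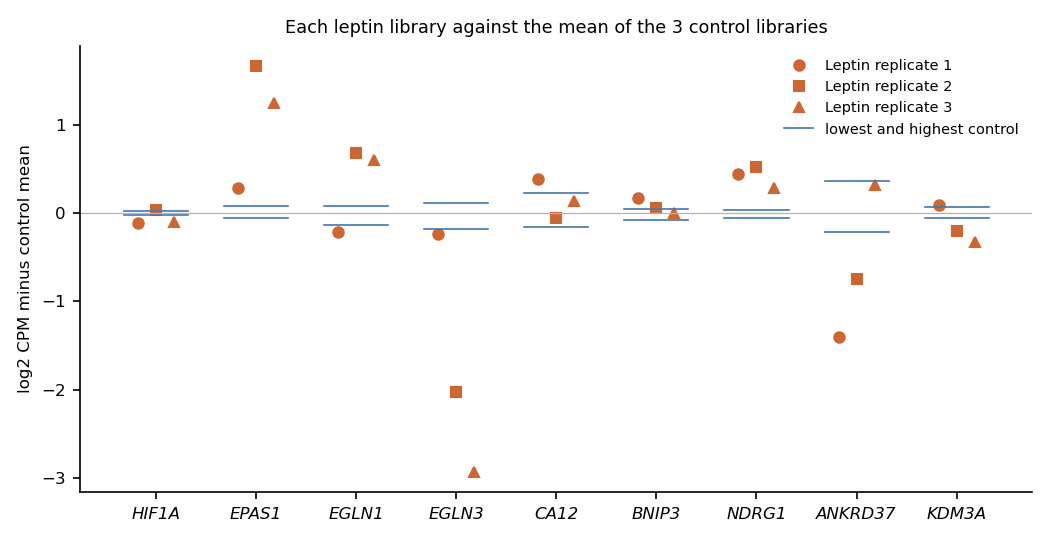
Difference in log2 CPM (y axis) of each leptin library from the mean log2 CPM of the 3 controls for the 9 tested genes, with blue lines at the lowest and highest control. Leptin replicate 1 lies at 0.28 for EPAS1, -0.22 for EGLN1 and -0.24 for EGLN3, while leptin replicate 2 reaches 1.67 for EPAS1 and leptin replicate 3 reaches -2.94 for EGLN3.

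In all, 2 of the 9 tested genes rose and 0 fell by edgeR's test, beside 5.71% and 4.09% of all tested genes. With unadjusted p-values under 0.05 there were 3, of which 2 were higher, beside 27.6% of all tested genes. DESeq2 called 2 higher and 0 lower, beside 8.52% and 5.60% of its genes. The median log2 fold change of the 9 was 0.07, beside 0.01 for all tested genes. The groups did not overlap for 3 of the 9, a share near the 32.2% of all tested genes. Leaving out leptin replicate 1 made it 4 called, 3 higher and 1 lower, beside 29.6% of all tested genes (16.0% higher and 13.5% lower). Leaving out any other library made it 0, beside 4.84% and 1.66% of all tested genes for leptin replicates 2 and 3 and 0.711%, 2.25% and 1.05% for control replicates 1, 2 and 3. It was 1 with the GC trend removed, beside 5.53%, and 1 without the low-count filter, beside 7.42%. EPAS1 and NDRG1 both belong to the next-to-highest of 5 equal bins of tested genes by GC content (52.6% and 52.1% GC), in which 203 genes rose and 75 fell of 3050. HIF1A, at 36.4% GC, belongs to the bin with least GC, in which 23 rose and 223 fell of 3050.

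**Figure D4:**
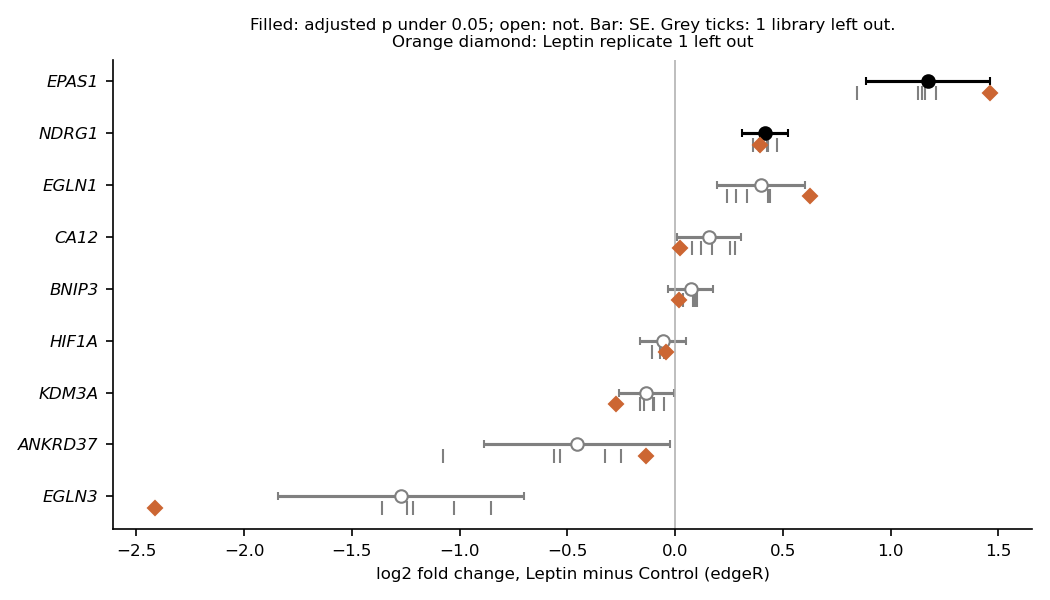
log2 fold change with leptin (x axis) of the 9 tested genes with its SE (bar), filled where the edgeR adjusted p is under 0.05, with grey ticks below for fits that leave out 1 library and an orange diamond for the fit without leptin replicate 1. EPAS1 and NDRG1 are filled, and EGLN3 moves from -1.27 to -2.41 without leptin replicate 1.

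Per kilobase of unshared exon the levels in controls ran, from highest to lowest, in the order HIF1A, EPAS1, BNIP3, NDRG1, EGLN1, CA12, KDM3A, ANKRD37, EGLN3 and CA9. The length comes from all annotated exons of a gene merged, not from 1 transcript: 5151 bases for HIF1A, 12002 for NDRG1 and 13299 for KDM3A before shared bases are left out. The order across genes, and the size of the ratios between 2 genes given above, therefore depend on the annotation too. HIF1A stood at 109 ± 1.82 CPM per kilobase and EPAS1 at 19.6 ± 0.947 (SD, n = 3 controls). BNIP3 followed at 12.0 ± 0.548, and NDRG1 (9.53 to 10.2) and EGLN1 (8.41 to 9.78) overlapped in range. CA12 stood at 4.59 ± 0.657, KDM3A at 2.88 ± 0.129, ANKRD37 at 1.62 ± 0.377 and EGLN3 at 0.186 ± 0.0200. With leptin the first and second places were the same, EPAS1 at 44.3 ± 19.3, while NDRG1 (12.1 to 14.2), BNIP3 (12.0 to 13.4) and EGLN1 (7.96 to 14.8) overlapped.

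The promoter windows of RefSeq (GRCh38.p14, from 250 bases before to 50 after a transcript start) were matched for 9 of the 10 genes, 11 windows in all. NDRG1 had no window and was not searched. The HIF core was searched on both strands in 2 forms, ACGTG and then GCGTG. The first form, ACGTG, was found in windows of 4 genes, EGLN1, CA9, BNIP3 and ANKRD37, beside 21.4% of all 35116 windows. Of the other genes HIF1A, EPAS1, CA12 and KDM3A held the second form, found in 36.5% of all windows, and EGLN3 held neither. BNIP3 held the second form too, 4 times. Both shares count windows, not genes, and some genes have more than 1 window. The 4 windows with ACGTG are shown because they hold the rarer of the 2 forms. Capitals mark ACGTG or its reverse complement, which overlap as CACGTG in BNIP3 and ANKRD37. The EGLN1 window is chr1:231422238-231422537 (minus strand), CA9 chr9:35673678-35673977 (plus), BNIP3 chr10:131981874-131982173 (minus) and ANKRD37 chr4:185396591-185396890 (plus).
EGLN1: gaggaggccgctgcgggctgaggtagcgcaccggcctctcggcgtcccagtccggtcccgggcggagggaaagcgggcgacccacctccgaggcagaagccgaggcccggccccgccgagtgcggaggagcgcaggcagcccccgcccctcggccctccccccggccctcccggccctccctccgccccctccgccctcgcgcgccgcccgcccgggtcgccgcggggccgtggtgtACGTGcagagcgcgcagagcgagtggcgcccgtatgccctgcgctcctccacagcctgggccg
CA9: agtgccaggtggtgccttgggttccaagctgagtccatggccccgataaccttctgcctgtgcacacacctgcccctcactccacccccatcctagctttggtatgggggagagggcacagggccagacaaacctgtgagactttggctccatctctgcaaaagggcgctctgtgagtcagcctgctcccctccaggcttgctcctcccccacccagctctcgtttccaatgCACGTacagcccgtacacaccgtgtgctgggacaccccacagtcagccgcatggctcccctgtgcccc
BNIP3: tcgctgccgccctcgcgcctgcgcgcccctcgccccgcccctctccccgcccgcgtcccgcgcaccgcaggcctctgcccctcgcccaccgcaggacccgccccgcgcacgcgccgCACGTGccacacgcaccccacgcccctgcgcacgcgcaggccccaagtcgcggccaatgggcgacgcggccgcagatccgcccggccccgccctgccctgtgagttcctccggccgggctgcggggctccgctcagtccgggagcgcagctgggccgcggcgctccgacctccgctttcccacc
ANKRD37: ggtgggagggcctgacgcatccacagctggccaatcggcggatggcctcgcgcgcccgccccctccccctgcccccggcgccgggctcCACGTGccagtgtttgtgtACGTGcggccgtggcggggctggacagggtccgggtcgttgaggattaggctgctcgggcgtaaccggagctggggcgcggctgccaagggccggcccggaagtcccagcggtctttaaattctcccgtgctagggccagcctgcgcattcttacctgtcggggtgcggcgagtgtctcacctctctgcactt
The core begins 13 bases before the start in EGLN1 and 18 bases before it in CA9. In BNIP3 the overlapping pair begins 134 bases before the start, and in ANKRD37 the pair begins 162 and the further copy 143 bases before it. Of these 4 genes 3 were tested and 0 changed (edgeR; 0 at an unadjusted p under 0.05, 0 by DESeq2), where 9.81% of all tested genes changed and 27.6% had such an unadjusted p. CA9 was near 0 counts in both groups. With 3 tested genes, and with NDRG1, the called target gene, outside the search, these counts cannot tell if the letters go with a change. A match is a description of these letters and not of bound protein.

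Among 14 other genes of HIF partners and oxygen sensing, 13 were tested, 2 rose and 0 fell (edgeR; unadjusted p under 0.05 in 3 higher and 2 lower genes, and 3 higher and 1 lower by DESeq2). Of all tested genes 5.71% rose, 4.09% fell and 27.6% had an unadjusted p under 0.05. ARNT2, a paralog of the HIF partner ARNT, stood at 9.44, 13.9 and 9.48 CPM in controls and at 19.6, 24.0 and 21.3 CPM with leptin, above every control in each leptin library (log2 fold change 0.99 ± 0.17, edgeR adjusted p = 0.00931). P4HTM, a prolyl hydroxylase of the endoplasmic reticulum membrane, went from 14.8 ± 1.80 to 22.7 ± 4.28 CPM (log2 fold change 0.62 ± 0.16, edgeR adjusted p = 0.0391). With the GC trend removed ARNT2 still passed (edgeR adjusted p = 0.0133) and P4HTM did not (0.136). ARNT itself stood at 48.7 ± 4.17 and 43.9 ± 4.25 CPM (edgeR adjusted p = 0.450). VHL, the substrate receptor of the ligase, stood at 119 ± 11.0 and 159 ± 25.6 CPM and RBX1, its RING subunit, at 56.2 ± 2.42 and 39.3 ± 9.70 CPM. Neither passed (log2 fold change 0.41 and -0.51, edgeR adjusted p = 0.0778 and 0.0684). The other ligase genes CUL2, ELOC and ELOB had log2 fold changes of -0.25, -0.20 and 0.12, the asparagine hydroxylase HIF1AN 0.02 and EGLN2 0.09. OS9, SIAH1 and SIAH2, which encode proteins known to act on the EGLN enzymes or HIF, had log2 fold changes of -0.06, -0.01 and 0.26. The direction of EGLN2, HIF1AN, ELOB and SIAH1 turned under some alternatives. HIF3A had at most 4 counts in a library and was not tested.

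Among 10 coactivators and modulators of HIF, 0 rose and 2 fell (edgeR; unadjusted p under 0.05 in 1 higher and 2 lower genes, the same counts as by DESeq2), where 5.71% and 4.09% of all tested genes did. HSP90AA1, a chaperone that stabilizes HIF1 alpha, fell from 1225 ± 143 to 536 ± 164 CPM, and MCM7, a subunit of the replicative helicase, from 192 ± 8.93 to 137 ± 7.30 CPM (edgeR adjusted p = 0.00700 and 0.0178).

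Hypoxia targets outside the 10 genes were divided. Of 65 tested targets in 2 lists, 7 rose and 3 fell, 10 in all, beside 9.81% of all tested genes. Of 23 targets of glucose metabolism, 1 rose and 1 fell, beside 5.71% and 4.09% of all tested genes. The unadjusted edgeR p was under 0.05 in 6 of the 23, 2 higher and 4 lower, beside 27.6% of all tested genes. The log2 fold change was negative in 17, and the median was -0.13, beside 0.01 for all tested genes. SLC16A3, which exports lactate, rose from 559 ± 49.1 to 786 ± 104 CPM, and the glycogen-branching enzyme gene GBE1 fell from 71.4 ± 1.97 to 54.1 ± 5.64 CPM (log2 fold change 0.49 and -0.40, edgeR adjusted p = 0.0418 and 0.0440). With the GC trend removed neither passed (edgeR adjusted p = 0.366 and 0.119). Set against the mean of the controls on the log2 scale, the list had a median of 0.08 in leptin replicate 1, -0.26 in leptin replicate 2 and -0.26 in leptin replicate 3. Without leptin replicate 1, 2 of its genes rose and 9 fell, beside 16.0% and 13.5% of all tested genes.

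Of 42 tested targets with other roles, 6 rose and 2 fell, beside 5.71% and 4.09% of all tested genes, with a median log2 fold change of 0.07. DESeq2 called 7 higher and 3 lower, beside 8.52% and 5.60% of its genes. The unadjusted edgeR p was under 0.05 in 21 of the 42, 15 higher and 6 lower, beside 27.6% of all tested genes. DDIT4, an inhibitor of mTORC1 signalling, rose from 215 ± 52.7 to 569.8 ± 151 CPM, and ADM, which encodes the vasodilator adrenomedullin, from 24.7 ± 1.06 to 43.4 ± 7.92 CPM (log2 fold change 1.41 ± 0.21 and 0.81 ± 0.14, edgeR adjusted p = 0.00487 and 0.00845). STC2, of a secreted glycoprotein, stood at 7.64, 7.33 and 6.36 CPM in controls and at 10.8, 30.5 and 27.0 CPM with leptin (log2 fold change 1.67 ± 0.33, edgeR adjusted p = 0.0163). In this gene, as in EPAS1, leptin replicate 1 was the leptin library nearest to the controls. TFRC, the transferrin receptor gene, fell from 190.3 ± 8.19 to 133 ± 2.87 CPM, and ERO1A, an oxidase of the endoplasmic reticulum, from 89.6 ± 4.48 to 64.4 ± 1.97 CPM (log2 fold change -0.51 and -0.48, edgeR adjusted p = 0.0131 and 0.0173). The 3 further genes that rose, NDUFA4L2, VEGFA and PLIN2, were named after their values were seen. NDUFA4L2, which is known to lower mitochondrial respiration in hypoxia, went from 1.76 ± 0.953 to 6.30 ± 3.20 CPM, the angiogenic factor gene VEGFA from 217 ± 20.7 to 355 ± 89.9 CPM and the lipid droplet protein gene PLIN2 from 1.53 ± 0.245 to 3.39 ± 0.685 CPM. Their log2 fold changes were 1.85, 0.71 and 1.15 (edgeR adjusted p = 0.0252, 0.0277 and 0.0356). With the GC trend removed NDUFA4L2 and ERO1A did not pass (edgeR adjusted p = 0.0524 and 0.0599). DDIT4, ADM, STC2, TFRC, VEGFA and PLIN2 still did.

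Of the 15 called genes in these lists (CA11 included), 15 passed without leptin replicate 1, 8 and 4 without leptin replicates 2 and 3, and 0, 4 and 1 without control replicates 1, 2 and 3. With the GC trend removed 10 of the 15 passed. The 5 tested paralogs of NDRG1 and KDM3A (NDRG2, NDRG3, NDRG4, KDM3B and JMJD1C) had 0 calls (edgeR; 0 at an unadjusted p under 0.05, 0 by DESeq2). Of 10 fibroblast markers 8 were tested and 1 fell, POSTN, from 5.75 ± 1.04 to 0.639 ± 0.209 CPM (edgeR adjusted p = 0.00109). The unadjusted edgeR p was under 0.05 in 5 of these 8, 2 higher and 3 lower, beside 27.6% of all tested genes. DESeq2 called 0 higher and 1 lower. The median log2 fold change of these markers was -0.46, beside 0.01 for all tested genes. Their summed level was 469 to 664 CPM in controls and 359.9 to 523 CPM with leptin, most of it COL1A1, and its part in the results above was not tested. Of 14 leukocyte markers 1 was tested and 0 changed (edgeR; 1 at an unadjusted p under 0.05, 0 by DESeq2). Of 12 ovarian or epithelial markers 10 were tested and 1 rose, FOLR1, the folate receptor gene (edgeR adjusted p = 0.0234). Beside these counts, 9.81% of all tested genes changed by edgeR, 5.71% higher and 4.09% lower. An unadjusted edgeR p under 0.05 was found for 27.6% of them.

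**Figure D5:**
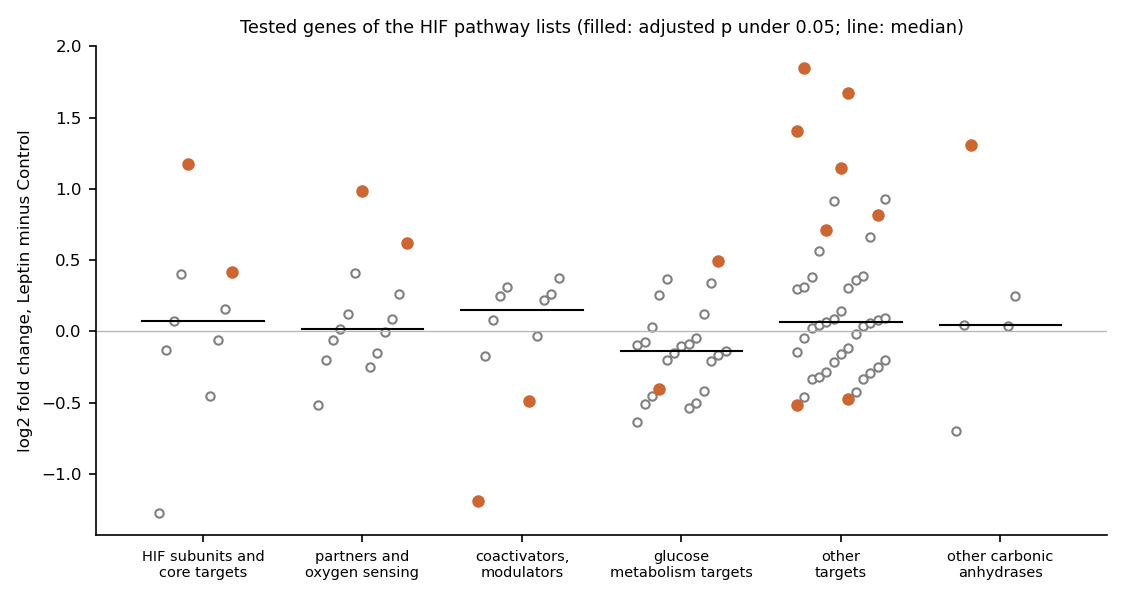
log2 fold change with leptin (y axis) of the tested genes of 6 lists (x axis), filled orange where the edgeR adjusted p is under 0.05 and open otherwise, with a black line at each list's median. Medians lie between -0.13 and 0.15, and called genes lie on both sides of 0 in both lists of targets.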

How the data were processed

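RNA was sequenced in 3 control and 3 leptin libraries. The deposited values are raw counts of read pairs per gene. Per the file headers, the authors counted with featureCounts 2.0.1 over the exons that GENCODE release 44 gives, and set no option for strand, multi-mapping or several overlapping genes. Per the submitters' processing notes, HISAT2 2.0.5, hg38, featureCounts 1.5.0-p3 and DESeq2 were used. The deposited tables also give the exon length of each gene, and 0 further sample columns were found. All 62700 IDs matched a symbol.

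Groups were compared with edgeR 4.0.16 in R 4.3.3 (filterByExpr, count minimum 10, total minimum 15; TMM; robust quasi-likelihood, Benjamini-Hochberg over all 15685 tested genes, threshold 0.05), tested on simulated data first. CPM uses TMM-scaled totals. Pairs of control libraries gave a chi-square per gene of 5.24 to 5.61, above sampling noise. Leptin replicates 2 and 3 gave 19.2, and leptin replicate 1 gave 45.4 and 38.7 with leptin replicates 2 and 3. Profile distances used log2 of CPM plus 0.1. GC trends were removed by lowess (span 0.3) on the GC content of each gene's longest transcript in GENCODE release 29 (15249 tested genes). DESeq2 1.42.0, other scalings, no filter, a replicate block and leave-outs were alternatives. Counts adjusted over a list alone were not made. Figures used Python 3.11.15 and matplotlib 3.10.9.

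The 10 genes and the lists were chosen with earlier results of these data known. The genes named are the 10, all genes of the partner and oxygen-sensing list, up to 5 called genes per other list with the smallest adjusted p, and the 3 nearest profiles of HIF1A and EPAS1, of which 1 is not reported here. Beyond this rule, marker genes, paralogs and the further called targets NDUFA4L2, VEGFA and PLIN2 are named, chosen after their values were seen.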

Additional observations from a re-analysis of the deposited data

How the results depend on the processing

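The number of genes changed by leptin, 1538 with 896 higher and 642 lower, became 2437 with 1478 higher when low counts were kept, 868 with 426 higher when the GC trend was removed and 942 with 465 higher when the GC trend was removed together with the replicate block. Leaving out 1 library gave 115 to 4761 genes changed, 55 to 2583 higher and 60 to 2178 lower. Of the 10 genes, 2 changed, both higher. This became 1 changed and 1 higher without the low-count filter, with the replicate block, with the GC trend removed, and with the GC trend and the block together. Leaving out 1 library gave 0 to 4 changed, 0 to 3 higher and 0 to 1 lower. Of the 65 other hypoxia targets, 10 changed, 7 higher and 3 lower. DESeq2 gave 5 lower, keeping low counts gave 18 changed and 8 lower, the GC trend removed with the replicate block gave 5 changed and 0 lower, and leaving out 1 library gave 0 to 29 changed, 0 to 12 higher and 0 to 17 lower. The cause of these shifts was not tested. Each leave-out has 1 library fewer. Leaving out leptin replicate 1 gave the 4761 genes changed, and leaving out any other library gave 115 to 788.

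Of 35 named genes, 35 stayed on their side of the threshold with RLE scaling, upper-quartile scaling or total counts only. With the GC trend removed, the log2 fold change of HIF1A turned to 0.0894 (0.0888 with the block), EGLN2 to -0.0105 (-0.0125), ELOB to -0.140 (-0.143) and SIAH1 to 0.137 (0.138). HIF1AN was -0.0271 with total counts only. Over the leave-outs EGLN2 ranged from -0.0561 to 0.212, HIF1AN from -0.0325 to 0.0771, ELOB from -0.0236 to 0.195 and SIAH1 from -0.0766 to 0.125. None of these values was called. Deviations from the group means had correlations of -0.0489, 0.0147 and -0.109 over 15685 genes between same-numbered control and leptin libraries. Between differently numbered ones they were -0.0525 to 0.101. With 3 libraries per group these values cannot tell if the numbers pair samples, and the labels do not say. With the replicate block 1303 genes passed, EPAS1 passed (edgeR adjusted p = 0.0134) and NDRG1 did not (0.0638). EGLN3 and ANKRD37 had 3 to 46 counts per library, which limits the precision of their values.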
